A study of Mus musculus with 12 samples.

Results

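The clustered protocadherins are cadherin-like adhesion proteins encoded by 3 neighbouring gene arrays, called alpha, beta and gamma. Their genes were taken as every row whose symbol was Pcdha, Pcdhac, Pcdhb, Pcdhga, Pcdhgb or Pcdhgc followed by a number, which gave 58 of 53932 gene identifiers. These were 14 alpha, 22 beta and 22 gamma genes, all on the plus strand of mouse chromosome 18. On GRCm38 the alpha genes lie within chr18:36930184-37187661, the beta genes within chr18:37264938-37524479 and the gamma genes within chr18:37661793-37841873. RNA sequencing gave each gene a level in FPKM, which counts fragments per length of transcript and per depth of the library, in 12 libraries of C57BL/6 cells, 3 in each of 4 groups. No transgene or mutation is given for any group. Glioblastoma libraries came from tumour cells labelled with cerebella and E18.5, and how that culture was made is not stated. MIM-Astrocytes were astrocytes moved out of serum into MIM, a serum-free medium with FGF2 at 20 ng/mL and up to 6 metabolites (methionine, threonine, glycine, cysteine, putrescine and S-adenosylmethionine), and were collected by day 5. NSC, the neural stem cells, were neurospheres from cortex taken at E14.5 and kept in EGF and FGF2, each at 20 ng/mL. Astrocytes were kept in 10% serum and are labelled as E14.5 cortex, although the protocol gives 2 possible sources, sorted postnatal cortex or differentiated neurospheres, without saying which was used.

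Each clustered protocadherin gene has its own promoter and a large first exon that encodes the extracellular cadherin repeats and the membrane span. Alpha and gamma first exons are spliced to constant exons at the end of their cluster, so that all alpha proteins share one intracellular tail and all gamma proteins another, whereas a beta gene stands on its own without such exons. In neurons the A-, B- and beta-type promoters are used in differing combinations from cell to cell, and homophilic binding of the resulting proteins lets a neuron tell its own branches from those of others. The C-type genes (Pcdhac1, Pcdhac2, Pcdhgc3, Pcdhgc4 and Pcdhgc5) are used more uniformly, and glial cells and progenitors are known to express Pcdhgc3. DNA methylation of the promoters and looping by CTCF and cohesin towards distant enhancers control which promoters are active.

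The libraries listed 14461 to 14919 genes at 1 FPKM or more. The files give FPKM without counts, so the depth is unknown, but the 95% intervals that came with the values had a median half-width of 27.6% to 35.3% of the value near 1 FPKM and of 11.2% to 14.1% near 5 FPKM. The defining astrocyte genes Gfap and Aqp4 averaged 3.20 and 0.125 FPKM in Glioblastoma, 7.35 and 35.5 FPKM in MIM-Astrocytes, 0.964 and 10.8 FPKM in NSC, and 258 and 397 FPKM in Astrocytes. They are 2 of 10 listed astrocyte genes. The 10 summed to a mean of 673 FPKM in Glioblastoma, 2914 FPKM in MIM-Astrocytes, 1161 FPKM in NSC and 2289 FPKM in Astrocytes. In the limma test described below, 4 of the 10 were higher and 3 lower in MIM-Astrocytes than in Astrocytes. Of all tested genes 34.8% and 26.6% were. The stem and progenitor genes Sox2 and Olig2 averaged 136 and 105 FPKM in Glioblastoma, 89.1 and 95.0 FPKM in MIM-Astrocytes, 104 and 104 FPKM in NSC, and 61.0 and 3.63 FPKM in Astrocytes. They too are 2 of 10 listed genes. Those 10 summed to a mean of 1123 FPKM in Glioblastoma, 4539 FPKM in MIM-Astrocytes, 3292 FPKM in NSC and 995 FPKM in Astrocytes. In Glioblastoma 3 of the 10 were higher and 6 lower than in NSC, where 44.8% and 25.1% of all tested genes were. Of the neuronal list, 7 of 14 genes were tested, and its sum was mostly Map2, which neural progenitors also express. That sum averaged 268 FPKM in Glioblastoma, 187 FPKM in MIM-Astrocytes, 315 FPKM in NSC and 121 FPKM in Astrocytes. In Glioblastoma 7 were higher and 0 lower than in Astrocytes (47.0% and 31.3% of all tested genes). Against NSC, 3 were higher and 3 lower in Glioblastoma (44.8% and 25.1%). Against MIM-Astrocytes, 6 were higher and 0 lower in Glioblastoma (41.5% and 28.3%). In NSC 5 were higher and 2 lower than in Astrocytes (37.7% and 33.4%). The neuronal nuclear marker Rbfox3 averaged 0.512 FPKM in Glioblastoma, 0.380 FPKM in MIM-Astrocytes, 0.392 FPKM in NSC and 0.0397 FPKM in Astrocytes. Meningeal fibroblast markers summed to 0.646 to 0.826 FPKM in Glioblastoma, 19.4 to 22.1 FPKM in MIM-Astrocytes, 1.078 to 1.338 FPKM in NSC and 280 to 328 FPKM in Astrocytes, in Astrocytes mostly from Ogn, Islr and Fmod, while the defining genes Dcn and Lum averaged at most 0.0584 and 0.00556 FPKM in any group. Choroid and ependymal markers were likewise highest in Astrocytes, at 63.8 to 77.4 FPKM in sum, and at most 18.8 FPKM elsewhere. None of the 7 microglial markers reached the level at which genes were tested. The part of these other cell types in the results was not tested. The labels do not say that replicates were separate cultures, and every p-value here rests on library-to-library spread that may be technical.

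Clustered protocadherins were expressed in all 4 groups, and the 3 clusters behaved differently. The gamma genes were the most abundant cluster, and their summed level was lowest in Glioblastoma and highest in MIM-Astrocytes. The gamma sum was 63.5, 61.6 and 57.0 FPKM in Glioblastoma, 195, 182 and 204 FPKM in MIM-Astrocytes, 133, 139 and 135 FPKM in NSC, and 129, 121 and 141 FPKM in Astrocytes. Every Glioblastoma library lay below the other 9 and every MIM-Astrocytes library above them, and NSC and Astrocytes overlapped. The beta sum was close to level across the groups, at 57.3, 56.5 and 55.3 FPKM in Glioblastoma, 59.4, 59.6 and 59.8 FPKM in MIM-Astrocytes, 58.5, 57.6 and 55.4 FPKM in NSC, and 52.9, 51.6 and 51.1 FPKM in Astrocytes. Its lowest values were those of Astrocytes, which overlapped with no other group, but at a common FPKM total each other group fell below Astrocytes. Glioblastoma also fell below Astrocytes with median-of-ratios and quantile scaling, at log2 ratios of -0.182 and -0.05. The alpha sum was much smaller, at 7.14, 6.96 and 6.64 FPKM in Glioblastoma, 3.75, 3.79 and 3.91 FPKM in MIM-Astrocytes, 6.96, 6.93 and 7.79 FPKM in NSC, and 5.35, 4.98 and 5.05 FPKM in Astrocytes. Glioblastoma and NSC overlapped there, and MIM-Astrocytes were lowest, while Glioblastoma lay above Astrocytes as deposited and below them at a common FPKM total. These sums are descriptions with no test. In bulk RNA, fewer cells that use a gene and less RNA of it per cell cannot be told apart.

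**Figure D1:**
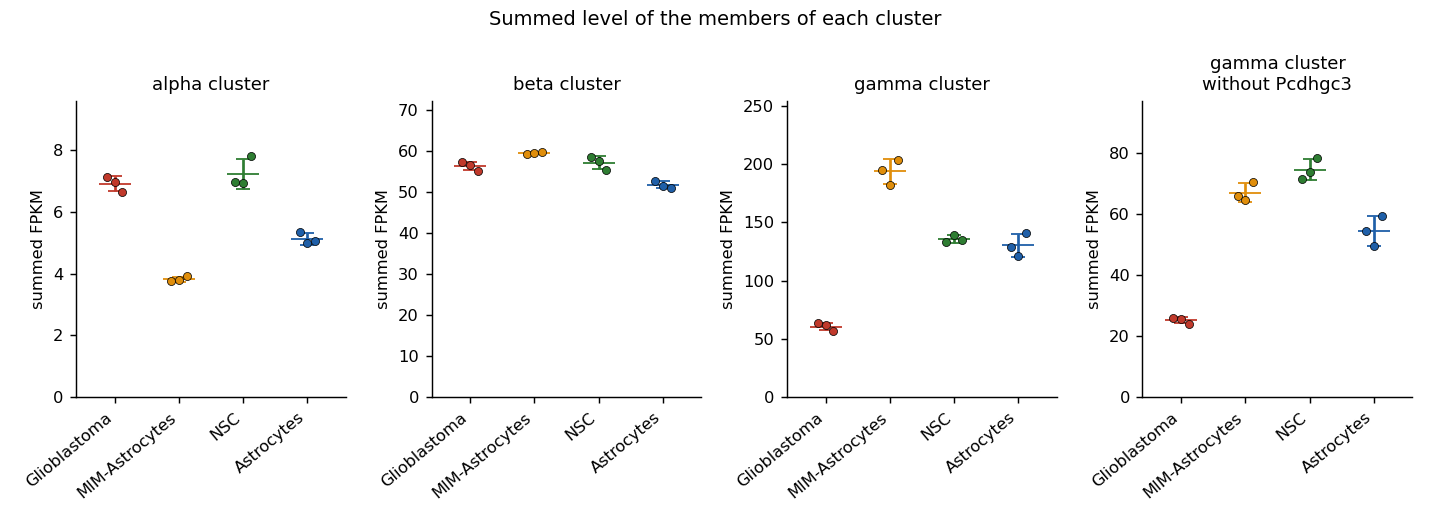
Summed FPKM of the alpha, beta and gamma genes and of the gamma genes without Pcdhgc3 (vertical axes, from 0) in the 3 libraries of each group (points), with the mean and SD (bars, n = 3). The gamma sum averaged 60.7 FPKM in Glioblastoma and 193.8 FPKM in MIM-Astrocytes, while the beta sum stayed between 51.9 and 59.6 FPKM in the means of all groups.

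Genes with 1 FPKM or more in 3 or more libraries were tested with limma on log2(FPKM + 1), and a gene is called at a Benjamini-Hochberg adjusted p below 0.05 over 16982 genes. Of the 58 clustered protocadherins, 43 were tested: 2 alpha, 19 beta and all 22 gamma genes. Of these, 18 reached 1 FPKM in every library, and Pcdhb3 and Pcdhb5 passed only through the Glioblastoma libraries, where they had to be high. Over all tested genes, 15.1% had every Glioblastoma library below the other 9 libraries and 30.0% had every one above them. Among the tested clustered protocadherins these were 29 and 7 of 43. The 29 comprised both alpha genes, 8 of the 19 beta genes and 19 of the 22 gamma genes, and the 7 were 6 beta genes and Pcdhgb8. In each other group fewer members lay below all other libraries than in Glioblastoma, while NSC had more members above them. NSC had 12 members above the other 9 libraries (9.12% of all tested genes did) and 4 below (13.4%). MIM-Astrocytes had 5 above (6.21%) and 0 below (4.32%), and Astrocytes 3 above (17.3%) and 7 below (22.5%). The 6 comparisons described here share libraries and are not independent of each other.

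**Figure D2:**
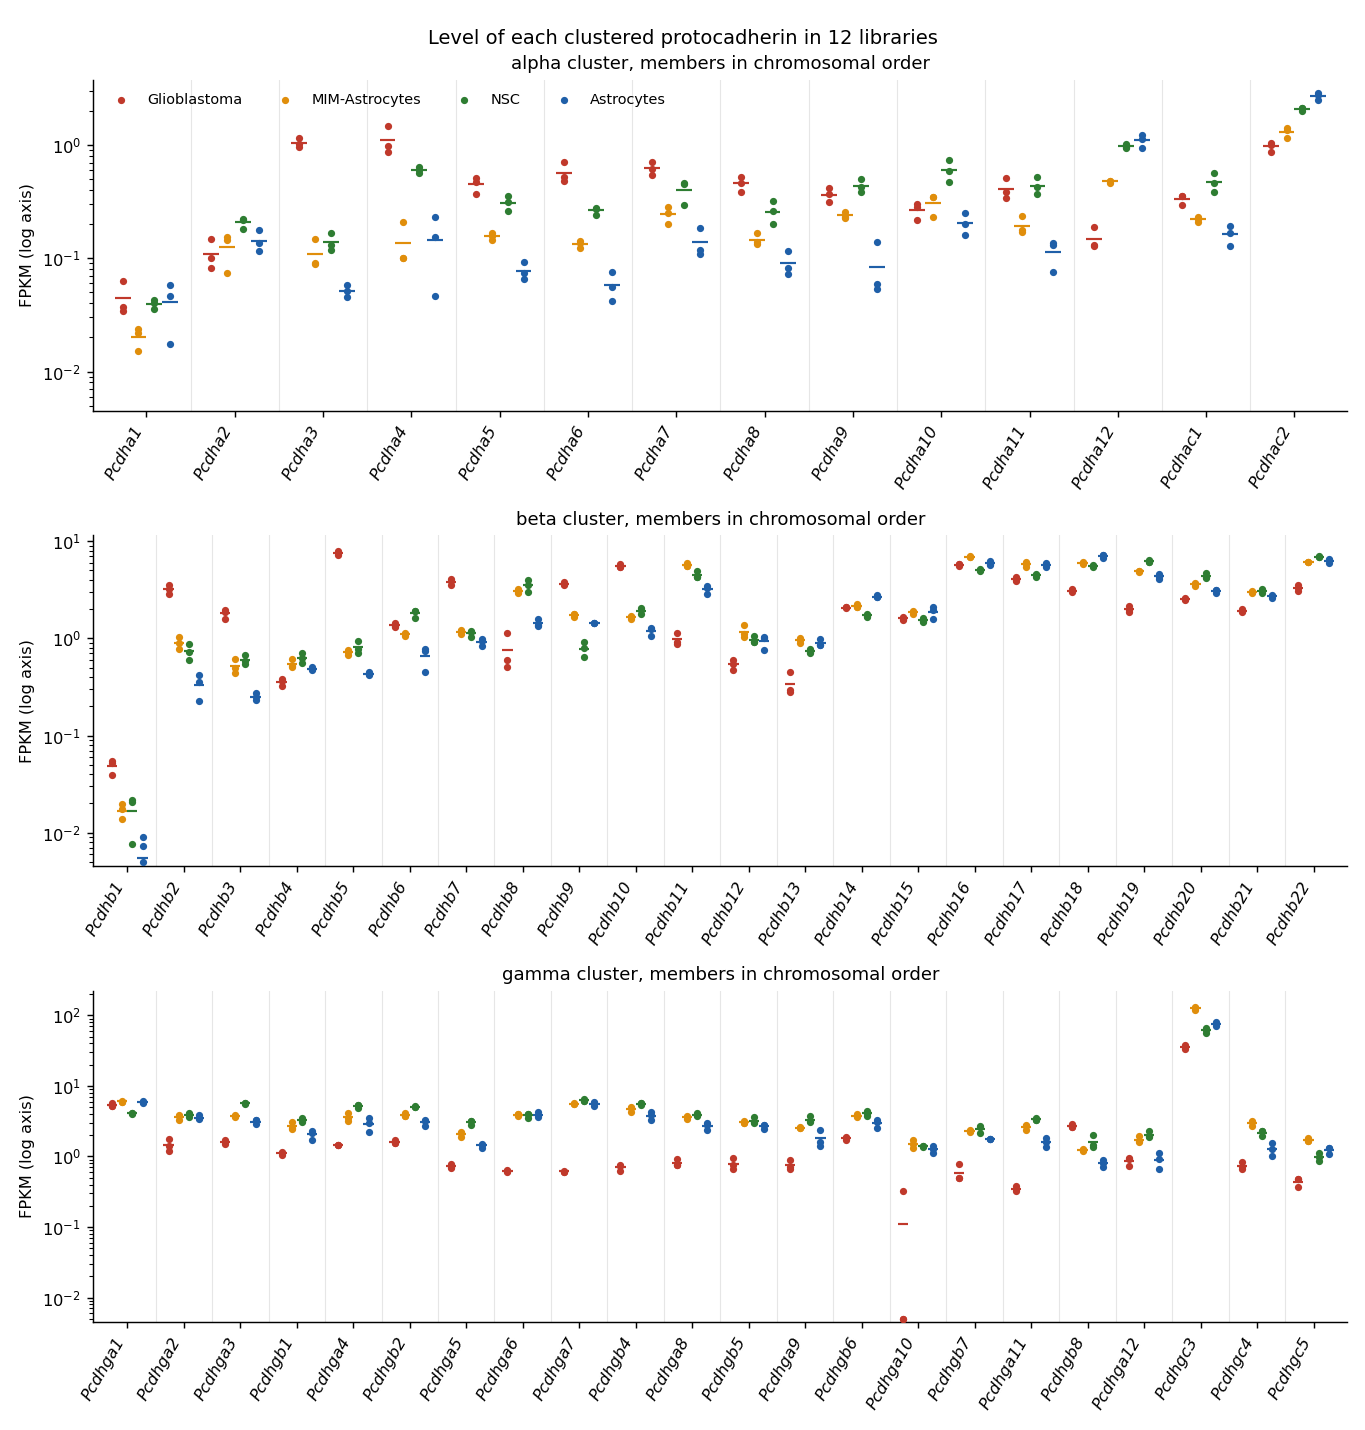
Level in FPKM (log axis) of each of the 58 genes in chromosomal order, by cluster, with 1 point per library and a bar at the mean of each group of 3. The mean of 20 of the 22 gamma genes is lowest in Glioblastoma, and Pcdhgc3 stands above every other gene in all groups. The 3 values under 0.005 FPKM, of which 1 is listed at 0, are drawn at the lower edge.

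The gamma cluster showed the broadest change in Glioblastoma. Against NSC, 20 of the 22 gamma genes were called lower and 2 higher, where 25.1% of all tested genes were called lower and 44.8% higher. Against Astrocytes, 20 were called lower and 1 higher, with a background of 31.3% lower and 47.0% higher. The median difference of the 22 genes was -1.18 on the log2(FPKM + 1) scale against NSC and -0.67 against Astrocytes, while the medians over all tested genes were 0.19 and 0.23. All 20 lower calls in each comparison remained under 3 other scalings of the libraries (median-of-ratios, quantile and common total).

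The 4 largest falls against NSC were those of Pcdhga7, Pcdhgb4, Pcdhga11 and Pcdhga6, variable A- and B-type genes from the middle to the later part of the gamma array. Pcdhga7 was at 0.609, 0.607 and 0.625 FPKM in Glioblastoma, 5.583, 5.498 and 5.729 FPKM in MIM-Astrocytes, 6.09, 6.10 and 6.45 FPKM in NSC, and 5.82, 5.24 and 5.78 FPKM in Astrocytes. The 3 Glioblastoma libraries were far below the other 9, and the other groups were close together. The difference was -2.16 ± 0.05 (SE) on the log2(FPKM + 1) scale against NSC, with limma adjusted p = 1.24e-10 and a 10.1-fold higher mean in NSC. Pcdhga6 was at 0.636, 0.605 and 0.631 FPKM in Glioblastoma, against 3.45, 4.04 and 3.95 FPKM in NSC and 3.90, 3.63 and 4.25 FPKM in Astrocytes. Pcdhgb4 was at 0.752, 0.737 and 0.625 FPKM in Glioblastoma, against 5.65, 5.44 and 5.71 FPKM in NSC and 3.83, 3.34 and 4.24 FPKM in Astrocytes. For both genes every Glioblastoma library lay below those of the other groups, while NSC and Astrocytes overlapped for Pcdhga6. Differences against NSC were -1.57 ± 0.06 for Pcdhga6 and -1.95 ± 0.08 for Pcdhgb4 (SE, log2(FPKM + 1); limma adjusted p = 7.42e-09 and 6.53e-09). Pcdhga11, nearer the constant exons, was at 0.322, 0.383 and 0.340 FPKM in Glioblastoma, against 3.33, 3.46 and 3.31 FPKM in NSC, a difference of -1.70 ± 0.07 (SE; limma adjusted p = 1.08e-08). The early genes Pcdhga3, Pcdhga4 and Pcdhga5 were also lower in Glioblastoma than in NSC, with means of 1.60, 1.44 and 0.725 FPKM against 5.71, 5.21 and 3.07 FPKM.

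The first gamma gene, Pcdhga1, differed far less. It was at 5.17, 5.71 and 5.23 FPKM in Glioblastoma, 5.92, 6.00 and 6.17 FPKM in MIM-Astrocytes, 4.02, 4.16 and 4.17 FPKM in NSC, and 5.93, 5.68 and 6.17 FPKM in Astrocytes. Glioblastoma lay above NSC and below MIM-Astrocytes, and overlapped with Astrocytes. Pcdhga1 is among the 20 genes called lower against Astrocytes, by -0.12 ± 0.05 (SE, log2(FPKM + 1); limma adjusted p = 0.041), and that call was lost when replicate 1 or 3 of Glioblastoma or replicate 1 or 3 of Astrocytes was left out, at limma adjusted p up to 0.132. The difference against NSC was 0.32 ± 0.05 (SE, log2(FPKM + 1); limma adjusted p = 0.000174), and this call was lost under at least 1 of the 3 other scalings. Pcdhga1 made up 21.3% of the gamma sum without Pcdhgc3 in Glioblastoma, 9.002% in MIM-Astrocytes and 10.9% in Astrocytes. A second exception, Pcdhgb8, was singled out after its values were seen. It was at 2.85, 2.63 and 2.57 FPKM in Glioblastoma, 1.24, 1.21 and 1.29 FPKM in MIM-Astrocytes, 1.34, 1.43 and 2.02 FPKM in NSC, and 0.801, 0.703 and 0.900 FPKM in Astrocytes. It was the only gamma gene with every Glioblastoma library above the other 9, at 0.51 ± 0.09 against NSC and 1.03 ± 0.09 against Astrocytes (SE, log2(FPKM + 1); limma adjusted p = 0.000513 and 1.79e-06). GENCODE release M21 classes Pcdhgb8 as a polymorphic pseudogene. Pcdhga10, also chosen after its values were seen, was at 0.325, 0.000862 and 4.18e-05 FPKM in Glioblastoma, 1.51, 1.31 and 1.70 FPKM in MIM-Astrocytes, 1.40, 1.37 and 1.42 FPKM in NSC, and 1.13, 1.26 and 1.41 FPKM in Astrocytes. Its 3 Glioblastoma values spread over orders of magnitude, so no fold is given.

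Beta genes differed in both directions in Glioblastoma, and their sum stayed near level as deposited. Under each of the 3 other scalings the beta sum of Glioblastoma fell below that of every other group. Against NSC, 8 of the 19 tested beta genes were called higher and 9 lower, beside 44.8% and 25.1% of all tested genes. Against Astrocytes, 7 were called higher and 10 lower, beside 47.0% and 31.3%. The higher shares were at or below those of all genes. The 6 genes with every Glioblastoma library above the other 9 (Pcdhb2, Pcdhb3, Pcdhb5, Pcdhb7, Pcdhb9 and Pcdhb10) were 6 of 19, a share close to the 30.0% of all tested genes with that pattern, and Pcdhb3 and Pcdhb5 are among them only because Glioblastoma carried them past the minimum. The calls for Pcdhb2, Pcdhb7, Pcdhb9 and Pcdhb10 remained under all 3 other scalings. Between Pcdhb2 and Pcdhb10 on the chromosome, Pcdhb4, Pcdhb6 and Pcdhb8 had lower means in Glioblastoma than in NSC. The 8 genes below the other 9 libraries were Pcdhb8, Pcdhb11, Pcdhb12 and Pcdhb18 to Pcdhb22. Beta proteins have cadherin repeats and a membrane span like the others but a short intracellular part with no constant region.

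Pcdhb5 had the largest difference of all tested members against both NSC and Astrocytes. It was at 7.95, 7.16 and 7.65 FPKM in Glioblastoma, 0.723, 0.666 and 0.758 FPKM in MIM-Astrocytes, 0.943, 0.783 and 0.714 FPKM in NSC, and 0.449, 0.425 and 0.419 FPKM in Astrocytes. Glioblastoma stood apart from all others, and Astrocytes were lowest. The mean was 9.32-fold higher in Glioblastoma than in NSC (2.24 ± 0.06, SE, log2(FPKM + 1); limma adjusted p = 4.41e-10) and 17.6-fold higher than in Astrocytes (2.58 ± 0.06; limma adjusted p = 5.65e-11). Because Pcdhb5 passed the minimum through Glioblastoma alone, these tests serve as a description. It was the top beta gene of Glioblastoma, with 13.5% of the beta sum. The top beta gene was Pcdhb16 in MIM-Astrocytes with 11.7%, Pcdhb22 in NSC with 12.2% and Pcdhb18 in Astrocytes with 13.6%.

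After Pcdhb5, the beta genes with the largest gains against NSC were Pcdhb9, Pcdhb2, Pcdhb7 and Pcdhb10. Pcdhb10 was at 5.85, 5.47 and 5.49 FPKM in Glioblastoma, against 1.94, 2.06 and 1.76 FPKM in NSC and 1.241, 1.291 and 1.052 FPKM in Astrocytes. Pcdhb7 was at 4.05, 3.53 and 3.93 FPKM in Glioblastoma, against 1.15, 1.18 and 1.04 FPKM in NSC and 0.827, 0.984 and 0.949 FPKM in Astrocytes. Both were higher in every Glioblastoma library. Pcdhb9 was at 3.81, 3.59 and 3.53 FPKM in Glioblastoma, 1.68, 1.77 and 1.79 FPKM in MIM-Astrocytes, 0.795, 0.909 and 0.642 FPKM in NSC, and 1.45, 1.44 and 1.44 FPKM in Astrocytes. Its 4 groups were separate, with NSC lowest. Pcdhb2 was at 3.25, 2.88 and 3.51 FPKM in Glioblastoma, against 0.875, 0.729 and 0.603 FPKM in NSC and 0.357, 0.422 and 0.225 FPKM in Astrocytes. Against NSC the differences on the log2(FPKM + 1) scale were 1.18 ± 0.06 for Pcdhb10, 1.19 ± 0.06 for Pcdhb7, 1.38 ± 0.06 for Pcdhb9 and 1.28 ± 0.09 for Pcdhb2 (SE; limma adjusted p between 1.27e-08 and 4.93e-07).

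Some neighbours of these genes moved the other way. Pcdhb8, between Pcdhb7 and Pcdhb9 on the chromosome, was at 0.605, 1.13 and 0.513 FPKM in Glioblastoma, 2.92, 3.19 and 3.03 FPKM in MIM-Astrocytes, 4.01, 3.54 and 2.97 FPKM in NSC, and 1.37, 1.59 and 1.33 FPKM in Astrocytes. Pcdhb11, the gene after Pcdhb10, was at 0.872, 1.14 and 0.928 FPKM in Glioblastoma, 5.506, 5.964 and 5.597 FPKM in MIM-Astrocytes, 4.92, 4.27 and 4.30 FPKM in NSC, and 3.27, 3.49 and 2.89 FPKM in Astrocytes. For both, every Glioblastoma library lay below the other 9, and the 4 groups of Pcdhb11 were separate with MIM-Astrocytes highest. Against NSC the differences were -1.37 ± 0.13 for Pcdhb8 and -1.47 ± 0.08 for Pcdhb11 (SE, log2(FPKM + 1); limma adjusted p = 4.02e-06 and 4.82e-08). At the late end, Pcdhb22 averaged 3.29 ± 0.223 FPKM in Glioblastoma, against 6.95 ± 0.154 FPKM in NSC (SD, n = 3 each). Pcdhb16, in contrast, was at 5.78, 5.83 and 5.54 FPKM in Glioblastoma, against 5.14, 4.97 and 5.01 FPKM in NSC. That difference of 0.15 (limma adjusted p = 0.00769) turned negative under all 3 other scalings. Pcdhb17 was not called against NSC, with means of 4.06 and 4.44 FPKM. The first beta gene, Pcdhb1, averaged 0.0489 FPKM in Glioblastoma, 0.0169 FPKM in MIM-Astrocytes, 0.0166 FPKM in NSC and 0.00545 FPKM in Astrocytes, and was not tested.

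**Figure D3:**
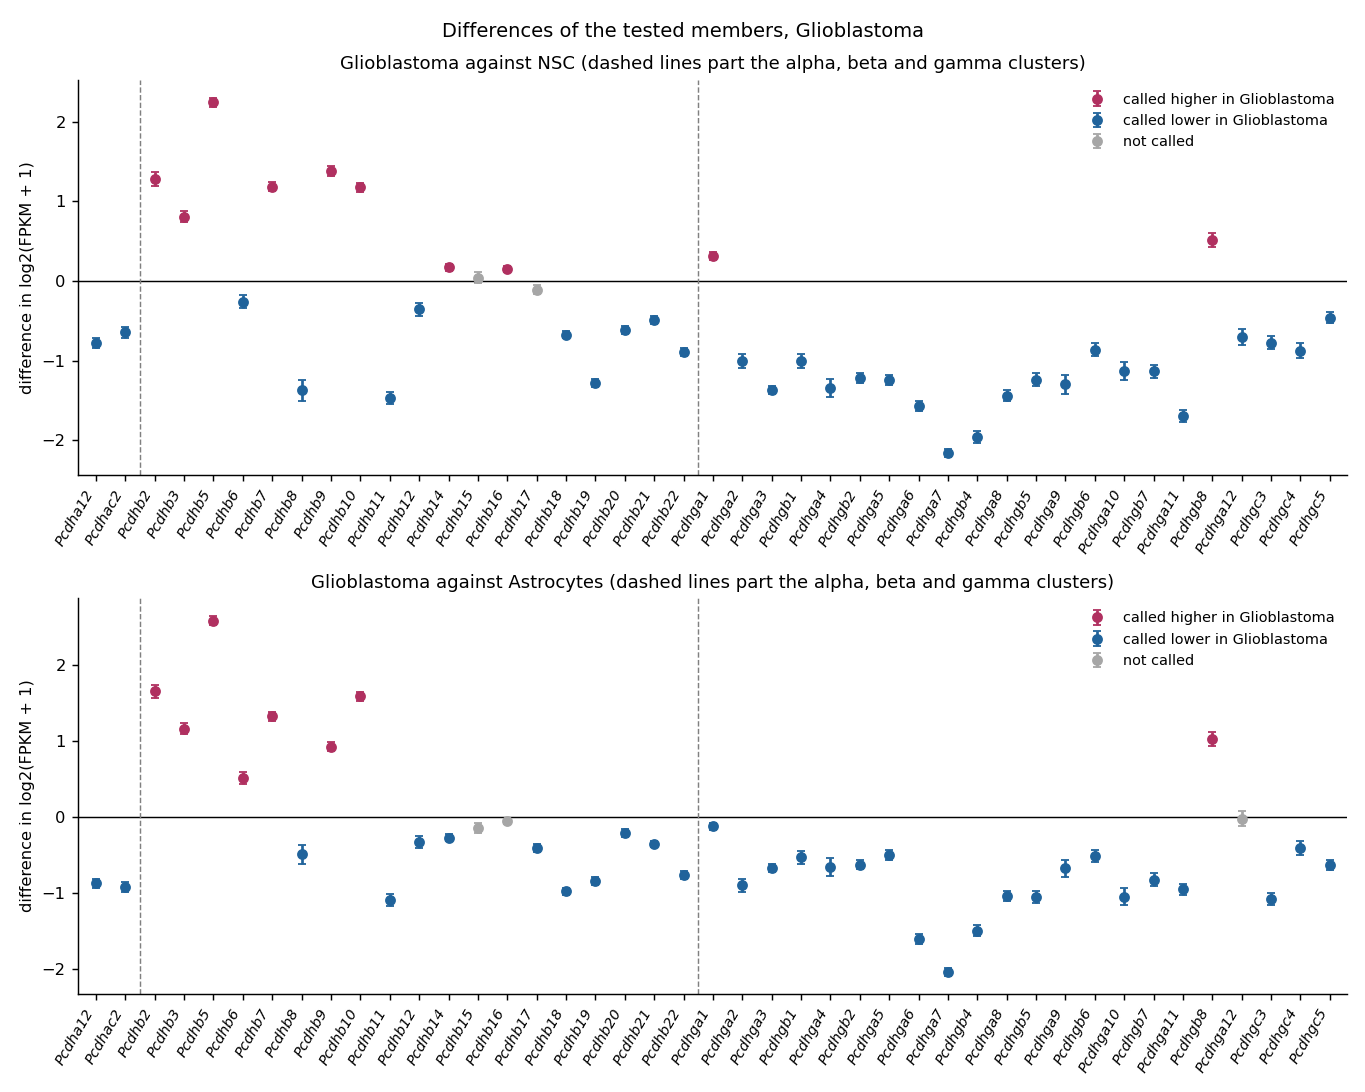
Difference in log2(FPKM + 1) of each tested member (vertical axis; points with SE, limma) for Glioblastoma against NSC and against Astrocytes, with genes in chromosomal order and coloured by call. Pcdhb5 reaches 2.24 and 2.58, Pcdhga7 reaches -2.16 and -2.03, and nearly all gamma genes lie below 0 in both panels.

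Alpha genes were low in all groups, and only Pcdha12 and Pcdhac2 were tested at 1 FPKM. Both were lowest in Glioblastoma. Pcdha12 was at 0.129, 0.187 and 0.132 FPKM in Glioblastoma, 0.465, 0.483 and 0.483 FPKM in MIM-Astrocytes, 0.947, 0.952 and 1.02 FPKM in NSC, and 1.12, 0.935 and 1.24 FPKM in Astrocytes. MIM-Astrocytes lay between Glioblastoma and the overlapping NSC and Astrocytes. The difference was -0.78 ± 0.06 for Glioblastoma against NSC and -0.50 ± 0.06 for MIM-Astrocytes against Astrocytes (SE, log2(FPKM + 1); limma adjusted p = 1.11e-06 and 4.13e-05). Other alpha genes were mixed, and Pcdha2 was also lowest in Glioblastoma, at a mean of 0.109 FPKM against 0.207 FPKM in NSC. The 12 genes Pcdha1 to Pcdha12 summed to 5.91, 5.59 and 5.31 FPKM in Glioblastoma, 2.18, 2.41 and 2.28 FPKM in MIM-Astrocytes, 4.60, 4.33 and 5.10 FPKM in NSC, and 2.28, 2.10 and 2.35 FPKM in Astrocytes. In this sum Glioblastoma was highest without overlap as deposited, at a log2 ratio of 0.26 against NSC. The sum of these genes was not computed under other scalings. For the whole alpha cluster, the log2 ratio of Glioblastoma to NSC was -0.064 as deposited. It was -0.309 with median-of-ratios, 0.068 with quantile and -0.279 with common total scaling.

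With the minimum lowered to 0.3 FPKM in 3 libraries, 12 of the 14 alpha genes were tested, of which Pcdha3 and Pcdha6 passed only through Glioblastoma libraries. In that fit, 6 alpha genes were called higher and 4 lower in Glioblastoma than in NSC, where 39.2% and 25.5% of all genes tested were. The lower ones were Pcdha10, Pcdha12, Pcdhac1 and Pcdhac2. Against Astrocytes 9 were called higher and 2 lower in Glioblastoma, with backgrounds of 42.1% and 31.3%. NSC exceeded Astrocytes in 10 alpha genes and fell below them in 1 (34.8% and 31.3% of all genes). MIM-Astrocytes exceeded Astrocytes in 1 alpha gene and fell below them in 2 (30.4% and 25.2%). Against NSC, MIM-Astrocytes were called lower in 11 alpha genes and higher in 0, where 22.9% and 26.3% of all genes were. Against MIM-Astrocytes, Glioblastoma was called higher in 9 alpha genes and lower in 2 (37.0% and 27.1%). Pcdha4 was at 1.48, 0.979 and 0.869 FPKM in Glioblastoma, 0.1001, 0.2078 and 0.0997 FPKM in MIM-Astrocytes, 0.603, 0.634 and 0.561 FPKM in NSC, and 0.233, 0.156 and 0.0469 FPKM in Astrocytes. Pcdha7 was at 0.611, 0.541 and 0.714 FPKM in Glioblastoma, 0.281, 0.201 and 0.251 FPKM in MIM-Astrocytes, 0.454, 0.293 and 0.466 FPKM in NSC, and 0.119, 0.109 and 0.187 FPKM in Astrocytes. For both genes Glioblastoma was highest and NSC next, with no overlap between these groups. Other annotated genes overlap exons of both, and their means were also highest in Glioblastoma. Gm42416 and, on the opposite strand, Gm38225 overlap Pcdha4. They averaged 1.40 and 1.48 FPKM in Glioblastoma, against 0.158 and 0.526 FPKM in NSC. Gm37388, which overlaps Pcdha7, averaged 0.609 FPKM in Glioblastoma and 0.301 FPKM in NSC. The part of these overlaps in the levels was not tested. Pcdha3, chosen after its values were seen, stood out more, at 1.15, 1.02 and 0.967 FPKM in Glioblastoma, against 0.168, 0.119 and 0.132 FPKM in NSC and 0.0456, 0.0511 and 0.0581 FPKM in Astrocytes. The first alpha gene, Pcdha1, averaged 0.0447 FPKM in Glioblastoma, 0.0203 FPKM in MIM-Astrocytes, 0.0397 FPKM in NSC and 0.0408 FPKM in Astrocytes. Its intervals had half-widths from 62.9% to 129% of the value, so no order of the groups can be read for Pcdha1.

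The 3 gamma C-type genes had every MIM-Astrocytes library above the other 9, and the 2 alpha C-type genes did not. Pcdhgc3, Pcdhgc4 and Pcdhgc5 were the only gamma genes with that pattern, which the beta genes Pcdhb11 and Pcdhb16 also had. All 3 were lowest in Glioblastoma. Each shares 2119 exon bases with other members, so their levels may not be independent. The call of Pcdhgc5 against Astrocytes (0.285, log2(FPKM + 1)) was lost at a common FPKM total, at 0.088. Pcdhgc3 was at 37.7, 36.0 and 32.9 FPKM in Glioblastoma, 129, 118 and 133 FPKM in MIM-Astrocytes, 61.4, 65.7 and 57.0 FPKM in NSC, and 75.0, 71.6 and 81.1 FPKM in Astrocytes. No groups overlapped. MIM-Astrocytes exceeded Astrocytes by 0.73 ± 0.08 and NSC by 1.03 ± 0.08 (SE, log2(FPKM + 1); limma adjusted p = 1.67e-05 and 2.03e-06). Glioblastoma lay below NSC by -0.77 ± 0.08 and below MIM-Astrocytes by -1.81 ± 0.08 (SE; limma adjusted p = 8.44e-06 and 1.35e-08). Pcdhgc3 alone supplied 58.5% ± 0.757 of the gamma sum in Glioblastoma, 65.4% ± 0.797 in MIM-Astrocytes, 45.1% ± 2.62 in NSC and 58.3% ± 0.752 in Astrocytes (SD, n = 3 each). Without it the gamma sum was 25.2 ± 0.988 FPKM in Glioblastoma, 67.0 ± 3.14 FPKM in MIM-Astrocytes, 74.6 ± 3.38 FPKM in NSC and 54.5 ± 4.98 FPKM in Astrocytes (SD, n = 3 each). MIM-Astrocytes then lay below NSC without overlap.

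Pcdhgc4, which in mice is required for the survival of cortical interneurons, was at 0.656, 0.836 and 0.705 FPKM in Glioblastoma, 3.12, 2.71 and 3.15 FPKM in MIM-Astrocytes, 1.96, 2.28 and 2.29 FPKM in NSC, and 1.28, 1.03 and 1.57 FPKM in Astrocytes. All 4 groups were separate, and MIM-Astrocytes exceeded Astrocytes by 0.81 ± 0.09 (SE, log2(FPKM + 1); limma adjusted p = 2.65e-05). Pcdhgc5 was at 0.474, 0.483 and 0.365 FPKM in Glioblastoma, 1.68, 1.66 and 1.81 FPKM in MIM-Astrocytes, 0.850, 0.994 and 1.104 FPKM in NSC, and 1.32, 1.07 and 1.30 FPKM in Astrocytes. NSC and Astrocytes overlapped, and the call between them (adjusted p = 0.0497) was lost when replicate 1 or 2 of NSC or replicate 1 or 3 of Astrocytes was left out, at limma adjusted p up to 0.179. The alpha C-type gene Pcdhac2 followed another order. It was at 0.872, 1.01 and 1.04 FPKM in Glioblastoma, 1.36, 1.15 and 1.41 FPKM in MIM-Astrocytes, 1.98, 2.14 and 2.13 FPKM in NSC, and 2.90, 2.75 and 2.50 FPKM in Astrocytes. Groups did not overlap, and MIM-Astrocytes lay below Astrocytes by -0.69 ± 0.07 (SE, log2(FPKM + 1); limma adjusted p = 6.67e-06). Pcdhac2 gave 34.2% of the alpha sum in MIM-Astrocytes, 28.9% in NSC and 53.0% in Astrocytes, while in Glioblastoma the top alpha gene was Pcdha4 with 15.9%. Pcdhac1 averaged 0.336 FPKM in Glioblastoma, 0.221 FPKM in MIM-Astrocytes, 0.470 FPKM in NSC and 0.163 FPKM in Astrocytes.

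**Figure D4:**
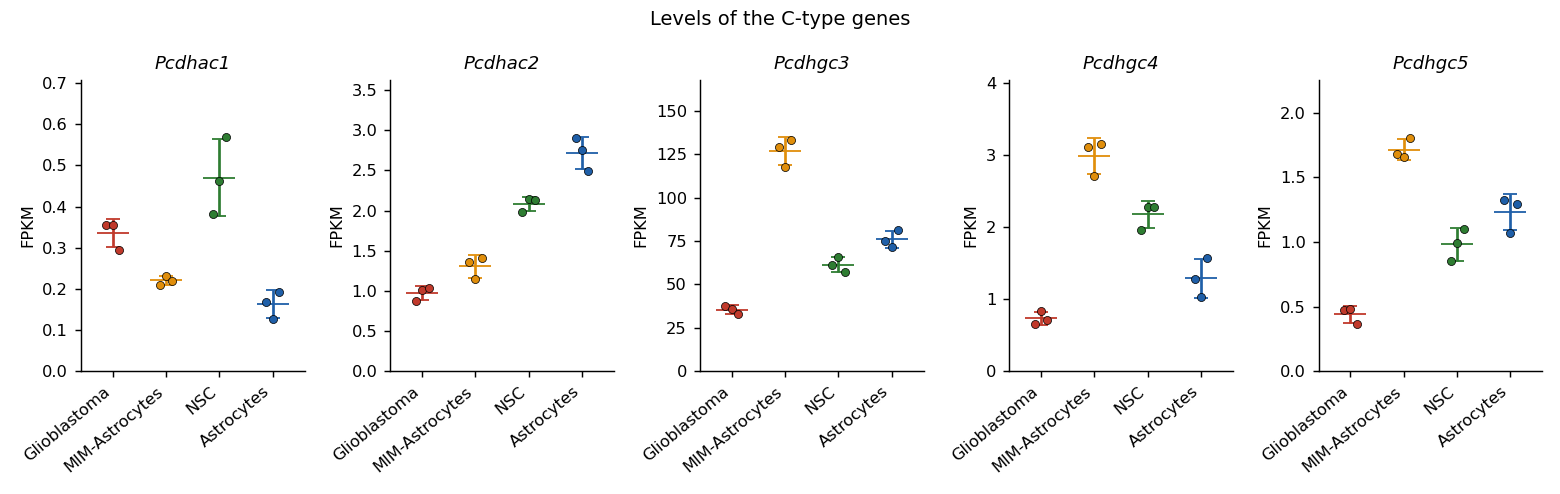
FPKM of the 5 C-type genes (vertical axes, from 0, each with its own scale) in the 3 libraries of each group, with the mean and SD (n = 3). The 3 gamma C-type genes peak in MIM-Astrocytes, Pcdhgc3 at 118 to 133 FPKM, whereas Pcdhac2 is highest in Astrocytes at 2.50 to 2.90 FPKM.

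Between MIM-Astrocytes and Astrocytes most differences were small. These groups differ in medium and also in markers of other cell types, and the parts of each cannot be told apart. Of the 43 tested members, 27 were called higher and 4 lower in MIM-Astrocytes, where 34.8% and 26.6% of all tested genes were. By cluster, 12 beta and 15 gamma genes were higher, and 2 alpha and 2 beta genes lower. The median difference of the members was 0.25 on the log2(FPKM + 1) scale, beside 0.09 over all tested genes. With libraries set to a common FPKM total, the median of all genes became -0.18 and the split became 6 higher and 9 lower. Of 17093 genes then tested, 3198 were called higher and 6973 lower. Median-of-ratios scaling gave 14 members higher and 4 lower, beside 5126 and 5503 of 16959 genes. The 6 members called higher as deposited and under all 3 other scalings were Pcdhb2, Pcdhb8, Pcdhb11, Pcdhga12, Pcdhgc3 and Pcdhgc4, and all 4 lower calls (Pcdha12, Pcdhac2, Pcdhb14 and Pcdhb18) remained. Pcdhb8 and Pcdhb11 exceeded Astrocytes by 0.74 ± 0.13 and 0.67 ± 0.08 (SE; limma adjusted p = 0.000538 and 2.59e-05), from the library values given above. Pcdhb14 was at 2.27, 2.11 and 2.11 FPKM in MIM-Astrocytes, against 2.65, 2.67 and 2.76 FPKM in Astrocytes. Pcdhb18 was at 5.79, 6.02 and 6.10 FPKM in MIM-Astrocytes, against 7.22, 7.22 and 6.76 FPKM in Astrocytes. Neither pair of groups overlapped, with differences of -0.22 ± 0.04 and -0.21 ± 0.04 (SE; limma adjusted p = 0.00122 and 0.00191). Pcdhga6, Pcdhga7, Pcdhga1, Pcdhb17 and Pcdhb22 were not called, with means of 3.91, 5.60, 6.03, 5.79 and 6.12 FPKM in MIM-Astrocytes and 3.93, 5.62, 5.92, 5.69 and 6.25 FPKM in Astrocytes. Astrocytes held the meningeal and choroid markers given above far above their level in MIM-Astrocytes, and the part of such cells in these differences was not tested.

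**Figure D5:**
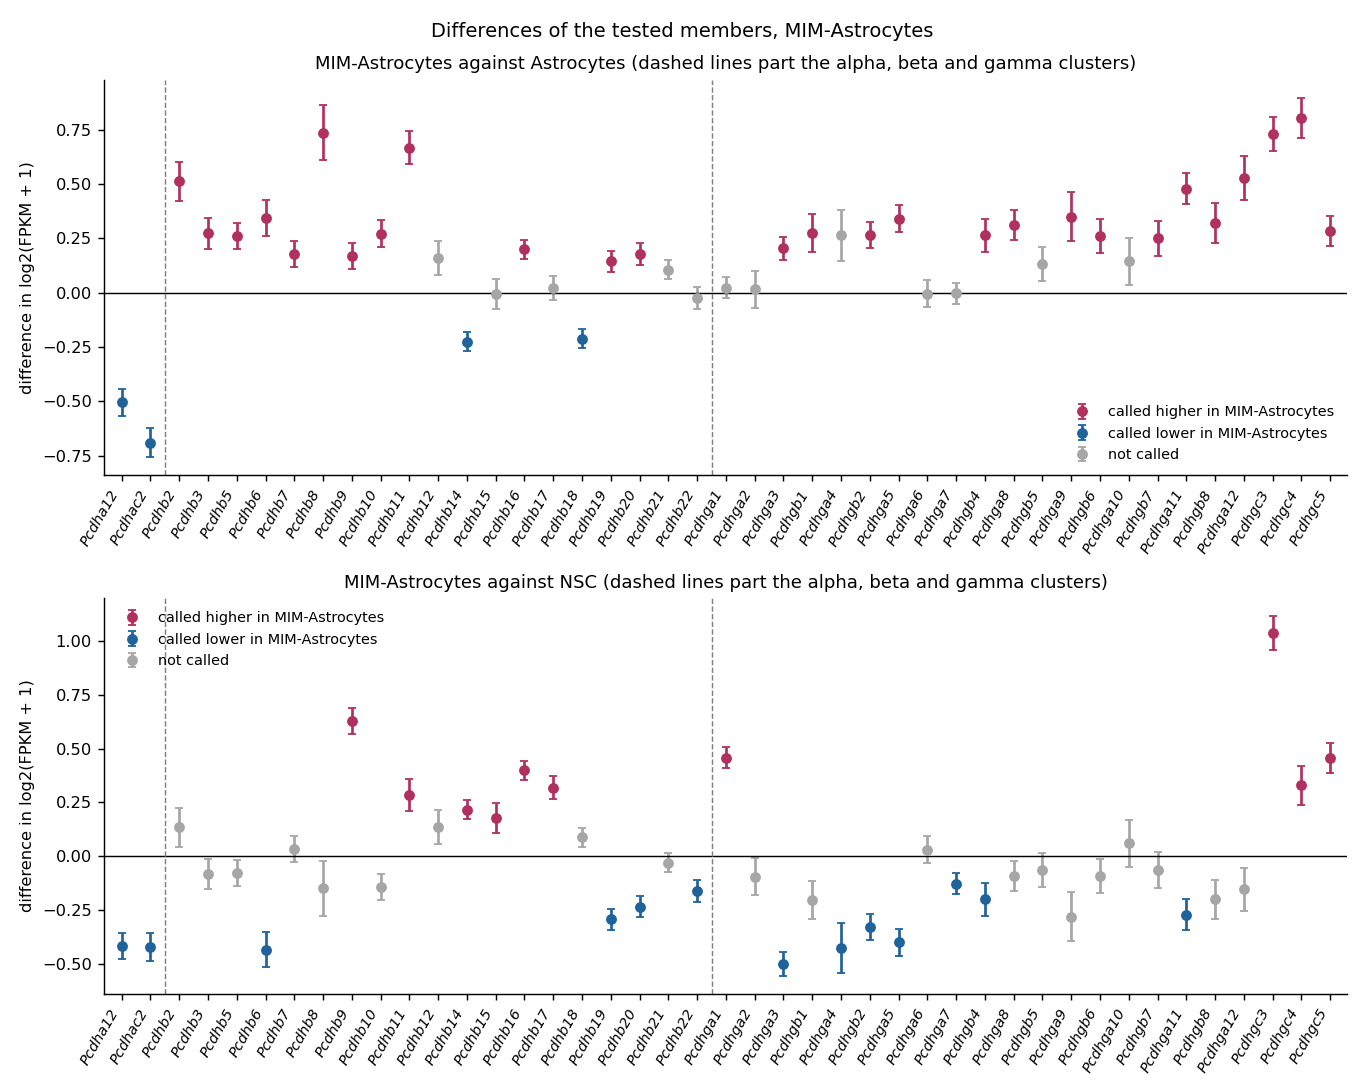
Difference in log2(FPKM + 1) of each tested member (vertical axis; points with SE, limma) for MIM-Astrocytes against Astrocytes and against NSC, with genes in chromosomal order and coloured by call. Pcdhgc3 stands highest against NSC at 1.03, and Pcdhac2 and Pcdha12 lie at -0.69 and -0.50 against Astrocytes.

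Against NSC, MIM-Astrocytes had 10 members called higher and 13 lower, where 31.0% and 24.9% of all tested genes were, and 20 members were not called. At a common FPKM total the split was 9 higher and 5 lower, beside 5325 and 3227 of 17093 genes. The higher members included the 3 gamma C-type genes and Pcdhga1, and the early gamma genes Pcdhga3 and Pcdhga5 were among those lower under every scaling. Pcdhga3 was at 3.78, 3.62 and 3.84 FPKM in MIM-Astrocytes, against 5.73, 5.60 and 5.80 FPKM in NSC. Pcdhga5 was at 2.15, 1.90 and 2.21 FPKM in MIM-Astrocytes, against 2.83, 3.14 and 3.23 FPKM in NSC. Neither overlapped, with differences of -0.50 ± 0.05 and -0.40 ± 0.06 (SE, log2(FPKM + 1); limma adjusted p = 2.62e-05 and 0.000365). Pcdhb9 exceeded NSC by 0.63 ± 0.06 (SE; limma adjusted p = 1.04e-05). Pcdhb6 was at 1.101, 1.048 and 1.144 FPKM in MIM-Astrocytes, against 1.94, 1.64 and 1.94 FPKM in NSC, a difference of -0.43 ± 0.08 (SE; limma adjusted p = 0.00117).

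NSC against Astrocytes gave 28 members called higher and 10 lower, where 37.7% and 33.4% of all tested genes were. At a common FPKM total, which set the median of all genes to -0.25 in place of 0.07, the split was 10 higher and 13 lower. Of 17093 genes then tested, 3734 were called higher and 8043 lower. The 10 higher calls that remained under all 3 other scalings included Pcdhga3, Pcdhga5, Pcdhga11, Pcdhb6 and Pcdhb8. Pcdhga5 averaged 3.07 ± 0.208 FPKM in NSC and 1.44 ± 0.104 FPKM in Astrocytes, and Pcdhga11 averaged 3.36 ± 0.0811 FPKM in NSC and 1.60 ± 0.239 FPKM in Astrocytes (SD, n = 3 each). Their differences were 0.74 ± 0.06 and 0.75 ± 0.07 (SE, log2(FPKM + 1); limma adjusted p = 1.93e-06 and 4.7e-06). All 10 lower calls remained under the 3 scalings and included Pcdhb9, Pcdhb14, Pcdhga1, Pcdhgc3 and Pcdhac2. Pcdhb14 averaged 1.72 ± 0.0639 FPKM in NSC and 2.70 ± 0.0588 FPKM in Astrocytes (SD, n = 3 each), a difference of -0.44 ± 0.04 (SE; limma adjusted p = 6.51e-06). Pcdhga1 differed by -0.44 ± 0.05 (SE; limma adjusted p = 1.48e-05).

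Between Glioblastoma and MIM-Astrocytes, 7 members were called higher and 33 lower in Glioblastoma, where 41.5% and 28.3% of all tested genes were. All 7 higher and all 33 lower calls remained under the 3 other scalings. The 33 lower members were both tested alpha genes, 10 beta genes and 21 of the 22 gamma genes. The 7 higher ones were 6 beta genes and Pcdhgb8. Of these 7, Pcdhb3 and Pcdhb5 had passed the minimum through Glioblastoma alone. The largest lower difference was -2.03 ± 0.05 for Pcdhga7 (SE, log2(FPKM + 1); limma adjusted p = 1.72e-10).

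Within a cluster, the order of the genes by level was more alike among the other 3 groups than between any of them and Glioblastoma. Across the 22 beta genes Spearman's rho between the group means was 0.912 to 0.976 for pairs of these groups and 0.347 to 0.375 for Glioblastoma with each of them. Across the 22 gamma genes the ranges were 0.898 to 0.959 and 0.365 to 0.429, and across the 14 alpha genes 0.758 to 0.851 and -0.0418 to 0.160. Level also followed position. Over the 22 beta genes, rho between chromosomal order and level was 0.228 in Glioblastoma, 0.826 in MIM-Astrocytes, 0.796 in NSC and 0.888 in Astrocytes, so that genes near the gamma cluster were the highest outside Glioblastoma. Over the 14 alpha genes it was 0.00659 in Glioblastoma, 0.864 in MIM-Astrocytes, 0.780 in NSC and 0.688 in Astrocytes. Over the 22 gamma genes it ran the other way, at -0.308 in Glioblastoma, -0.462 in MIM-Astrocytes, -0.525 in NSC and -0.572 in Astrocytes, although the late gene Pcdhgc3 was the highest of all. These values describe the listed genes, which share libraries, depth and, within alpha and gamma, exons.

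Shared sequence limits how far a level can be assigned to a single gene. In GENCODE release M21, 38% to 54.9% of the exon bases of an alpha gene and 27.8% to 66.8% of those of a gamma gene belonged to another member as well. For most genes these were the constant exons, but Pcdhga4 and Pcdhgb1 shared 3157 and 3154 bases, more than the 2119 bases shared by most gamma genes. How the fragments from them were divided among members is not visible in the values. Beta genes shared no exon bases apart from the pair Pcdhb21 and Pcdhb22 (455 bases), and at most 12% of the 50-base stretches of a beta gene occurred in another member. None of the 6 beta genes that were higher in every Glioblastoma library shared exon bases with another member. Genes on the opposite strand also overlapped some members, and whether the libraries kept strand is not stated. The transcript Gm26672 covered all 2613 bases that only Pcdhga10 has, at 0.685 FPKM in Glioblastoma, 1.84 FPKM in MIM-Astrocytes, 2.68 FPKM in NSC and 1.27 FPKM in Astrocytes. BC037039 covered 1559 of the bases that only Pcdhgc3 has, at 1.43 FPKM in Glioblastoma, 3.55 FPKM in MIM-Astrocytes, 2.66 FPKM in NSC and 1.04 FPKM in Astrocytes. On the same strand, Gm38182 overlaps exons of the gamma genes and averaged 4.52 FPKM in Glioblastoma, 20.7 FPKM in MIM-Astrocytes, 12.5 FPKM in NSC and 19.5 FPKM in Astrocytes. Its libraries ranged from 3.35 to 6.28 FPKM in Glioblastoma, 3.24 to 30.3 FPKM in MIM-Astrocytes, 5.73 to 18.1 FPKM in NSC and 16.2 to 22.4 FPKM in Astrocytes. MIM-Astrocytes thus overlapped with every other group.

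Of 52 other genes around and within the clusters, 28 averaged 1 FPKM or more in at least 1 group, and of these 16 were lowest and 6 highest in Glioblastoma. The share of all genes with their lowest or highest mean in Glioblastoma was not computed, so this count has no background beside it. Some of the 28, among them Gm38182, Gm26672, Gm42416 and BC037039, overlap exons of members and are not independent of them. A few were picked after their values were seen. Vaultrc5, a vault RNA gene before the alpha cluster, was highest in Glioblastoma at 95.8 FPKM, beside 61.4 FPKM in MIM-Astrocytes, 38.2 FPKM in NSC and 55.3 FPKM in Astrocytes. The lincRNA 3222401L13Rik, which ends just before Pcdhga1, averaged 0.206 FPKM in Glioblastoma, 2.80 FPKM in MIM-Astrocytes, 1.44 FPKM in NSC and 2.33 FPKM in Astrocytes. Past the gamma cluster, Diaph1, an actin nucleator, averaged 2.28 FPKM in Glioblastoma, 5.22 FPKM in MIM-Astrocytes, 3.88 FPKM in NSC and 6.86 FPKM in Astrocytes, and the histone deacetylase gene Hdac3 averaged 20.9 FPKM in Glioblastoma, 38.8 FPKM in MIM-Astrocytes, 33.3 FPKM in NSC and 35.2 FPKM in Astrocytes. Zmat2, before the alpha cluster, was closer to level at 16.7 FPKM in Glioblastoma, 20.2 FPKM in MIM-Astrocytes, 21.1 FPKM in NSC and 18.7 FPKM in Astrocytes. Taf7, a general transcription factor gene between the beta and gamma clusters, was at 1.82 FPKM in Glioblastoma, 2.89 FPKM in MIM-Astrocytes, 5.02 FPKM in NSC and 2.00 FPKM in Astrocytes.

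Of 25 genes listed as regulators of clustered protocadherin promoters (CTCF, cohesin, DNA and histone methylation), 24 were tested. In Glioblastoma 14 were called higher and 3 lower than in NSC, where 44.8% and 25.1% of all tested genes were. Against Astrocytes 20 were higher and 3 lower in Glioblastoma, where 47.0% and 31.3% of all tested genes were. The median difference was 0.22 and 0.84 on the log2(FPKM + 1) scale, beside 0.19 and 0.23 over all tested genes. In MIM-Astrocytes 18 were higher and 1 lower than in Astrocytes (34.8% and 26.6% of all genes), and in NSC 23 were higher and 0 lower than in Astrocytes (37.7% and 33.4%). MIM-Astrocytes exceeded NSC in 6 and fell below NSC in 11 (31.0% and 24.9%). The maintenance DNA methyltransferase gene Dnmt1 averaged 51.2 ± 1.28 FPKM in Glioblastoma, 20.6 ± 0.986 FPKM in MIM-Astrocytes, 12.2 ± 0.824 FPKM in NSC and 5.30 ± 0.511 FPKM in Astrocytes (SD, n = 3 each). Dnmt3b, the de novo methyltransferase known to methylate these promoters, ran the other way in Glioblastoma, at 0.623 ± 0.0737 FPKM, against 1.88 ± 0.0937 FPKM in NSC (SD, n = 3 each; -0.83, limma adjusted p = 1.3e-06). Ctcf averaged 24.9 FPKM in Glioblastoma, 26.2 FPKM in MIM-Astrocytes, 21.8 FPKM in NSC and 14.3 FPKM in Astrocytes, and the cohesin gene Rad21 averaged 56.4 FPKM in Glioblastoma, 49.99 FPKM in MIM-Astrocytes, 27.9 FPKM in NSC and 20.0 FPKM in Astrocytes. The cohesin subunit genes Stag1 and Stag2 differed in direction, with 14.3 and 78.9 FPKM in Glioblastoma against 29.7 and 43.4 FPKM in NSC. The chromatin repressor genes Smchd1 and Setdb1 averaged 27.8 and 19.4 FPKM in Glioblastoma, 20.8 and 12.3 FPKM in MIM-Astrocytes, 15.4 and 17.0 FPKM in NSC, and 12.5 and 8.05 FPKM in Astrocytes.

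Of 28 partners and effectors of the proteins, 26 were tested, and in Glioblastoma 16 were higher and 8 lower than in NSC and 15 higher and 6 lower than in Astrocytes. Of all tested genes, 44.8% and 25.1% were higher and lower than in NSC, and 47.0% and 31.3% higher and lower than in Astrocytes. In MIM-Astrocytes 13 were higher and 5 lower than in Astrocytes (34.8% and 26.6% of all genes). The kinases FAK and Pyk2, which the constant tails bind and inhibit, are encoded by Ptk2 and Ptk2b. Ptk2 averaged 49.5 FPKM in Glioblastoma, 35.8 FPKM in MIM-Astrocytes, 31.5 FPKM in NSC and 26.0 FPKM in Astrocytes. Ptk2b was near 0.1 FPKM in the mean of every group and was not tested. The kinase gene Fyn averaged 249 FPKM in Glioblastoma, 83.4 FPKM in MIM-Astrocytes, 106 FPKM in NSC and 30.0 FPKM in Astrocytes. Marcks, which encodes an actin-binding protein downstream of gamma protocadherins, was lower in Glioblastoma than in NSC, at 45.6 against 231 FPKM (-2.32, limma adjusted p = 6.4e-10), and averaged 118 FPKM in MIM-Astrocytes and 20.96 FPKM in Astrocytes.

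Cadherins outside the clusters were read against the 44.8% of all tested genes called higher and the 25.1% called lower in Glioblastoma than in NSC. Of 14 non-clustered protocadherins 9 were tested, and 1 was higher and 5 lower in Glioblastoma than in NSC. Pcdh10 averaged 5.35 FPKM in Glioblastoma, 68.1 FPKM in MIM-Astrocytes, 70.8 FPKM in NSC and 63.4 FPKM in Astrocytes, with Glioblastoma far below the rest. The 1 higher gene was Pcdh15, known as a component of the tip links of hair cells, at 36.5 FPKM in Glioblastoma, 1.84 FPKM in MIM-Astrocytes, 8.04 FPKM in NSC and 0.00257 FPKM in Astrocytes. Of 9 giant cadherins of the Fat, Dachsous and Celsr families 7 were tested, and 5 were lower and 0 higher in Glioblastoma than in NSC. Celsr1, a planar polarity gene, averaged 0.277 FPKM in Glioblastoma, 7.57 FPKM in MIM-Astrocytes, 15.3 FPKM in NSC and 8.12 FPKM in Astrocytes. Of 19 classical cadherins 10 were tested, and 2 were higher and 4 lower in Glioblastoma than in NSC. Cdh2, which encodes N-cadherin, averaged 16.1 FPKM in Glioblastoma, 55.5 FPKM in MIM-Astrocytes, 41.7 FPKM in NSC and 113 FPKM in Astrocytes. Against the 5 of 9 non-clustered, 5 of 7 giant and 4 of 10 classical genes called lower in Glioblastoma than in NSC, 31 of the 43 clustered members were, and the difference between these shares was not tested.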

How the data were processed

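Each of the 12 libraries had a table of FPKM per gene, which per the file headers and the submitters' processing notes the authors made with Cufflinks, each with its 95% interval and a quality status. The Cufflinks version, the aligner, the library strandedness and the read counts are not given in the sources used here, so count tests were not possible. The build is GRCm38 per the submitters' processing notes, and the loci of all 58 members were identical in GENCODE release M21, used here for exons. The row named Pcdha10 in the files carries an identifier that M21 names Pcdha11. FPKM of lines sharing an identifier were summed. Reads were not processed again.

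Genes with status OK in all 12 libraries and 1 FPKM or more in 3 or more libraries (16982) entered limma 3.58.1 (R 4.3.3) on log2(FPKM + 1), fitting the 4 group means to the 12 libraries together (residual df 8), with a trended variance prior and two-sided p-values adjusted by Benjamini-Hochberg over all genes tested. Differences on that scale understate the change of low genes. A gene was called at an adjusted p below 0.05. The fit was tested on simulated data. Cluster sums add the members' FPKM. Tables were handled in Python 3.11.15 with pandas 2.3.3 and NumPy 2.4.6, and plots drawn with matplotlib 3.10.9. The members, the gene lists and the tests were chosen with earlier results of these data known. Members named were the 4 of each cluster with the highest mean, in each comparison the 4 largest non-overlapping called differences each way, the 5 C-type genes and the first gene of each cluster; from each other list, the 3 with the smallest p each way and 8 fixed genes could be named. Pcdha2, Pcdha3, Pcdha10, Pcdhb3, Pcdhb4, Pcdhgb1, Pcdhgb8, Pcdhga10 and Pcdhga12, the complete lists of members beyond all other libraries, and the neighbouring and overlapping genes were named after their values were seen. Alternatives were pseudocounts of 0.1 and 0.5, other minimum levels, 3 other scalings, array weights, fits of 6 libraries, the replicate number as a block and leaving out each library. Member sequences are not printed.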

Additional observations from a re-analysis of the deposited data

How the results depend on the processing

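Lower calls in Glioblastoma all remained under the 3 other scalings of the libraries, whereas many calls between the other 3 groups depended on the scaling. Requiring a mean of 5 FPKM leaves few members to test, and gave 2 higher and 1 lower in MIM-Astrocytes against Astrocytes, 0 and 4 in NSC against Astrocytes, 2 and 3 in Glioblastoma against NSC, 0 and 3 in Glioblastoma against Astrocytes, 3 and 1 in MIM-Astrocytes against NSC, and 0 and 5 in Glioblastoma against MIM-Astrocytes. Of all 10289 genes then tested, the counts in that order were 4224 and 2583, 4135 and 3610, 5377 and 2304, 5518 and 2928, 3863 and 2558, and 4795 and 2870. Without a filter, where more alpha genes are tested, Glioblastoma had 17 members higher than NSC, 18 higher than Astrocytes and 17 higher than MIM-Astrocytes, and MIM-Astrocytes 20 lower than NSC. With 0.3 FPKM these were 16, 17, 16 and 20. Over all genes the same calls were 9536, 10512, 9153 and 5270 of 37662 without a filter. With 0.3 FPKM they were 8465, 9095, 7996 and 4943 of 21590. Median-of-ratios scaling gave 14 higher in MIM-Astrocytes against Astrocytes, and a common total gave 6 higher and 9 lower there, 10 higher in NSC against Astrocytes and 5 lower in MIM-Astrocytes against NSC. At a common total the median of all genes was also lower in Glioblastoma against Astrocytes, at -0.29 in place of 0.23.

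Among members named by rule, some differences called as deposited or at a common total changed sign there. In MIM-Astrocytes against Astrocytes these were Pcdhb16 (-0.095), Pcdhb17 (-0.270), Pcdhb9 (-0.041), Pcdhga1 (-0.273), Pcdhga3 (-0.059) and Pcdhgb4 (-0.010). In NSC against Astrocytes they were Pcdhb22 (-0.216), Pcdhb7 (-0.062) and Pcdhga7 (-0.219). Other tested members also changed sign at a common total. Examples are Pcdhb19 (0.145 to -0.137) and Pcdhb20 (0.178 to -0.085) in MIM-Astrocytes against Astrocytes. In NSC against Astrocytes, examples are Pcdhb21 (0.136 to -0.166) and Pcdhgb5 (0.195 to -0.107). Pcdhb16 in Glioblastoma against NSC was -0.049 with median-of-ratios, -0.014 with quantile and -0.030 with common total scaling. The cause was not tested.

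Log2 ratios of the alpha sums were -0.54 with median-of-ratios scaling, -0.764 at a common total and 0.06 without the highest member for MIM-Astrocytes against Astrocytes. For NSC against Astrocytes they were 0.385 with quantile scaling, 0.096 at a common total and 1.095 without the highest member. For Glioblastoma against NSC they were -0.309 by median-of-ratios, 0.068 by quantile, -0.279 by common total and 0.207 without the highest member. For Glioblastoma against Astrocytes they were 0.129 with median-of-ratios scaling, -0.183 at a common total and 1.302 without the highest member. MIM-Astrocytes against NSC gave -0.843 with quantile scaling and -1.035 without the highest member, and Glioblastoma against MIM-Astrocytes 0.669, 0.911, 0.581 and 1.242 in the order of the 4 settings.

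For beta sums, the 3 scalings (median-of-ratios, quantile, common total) gave 0.087, 0.137 and -0.138 in MIM-Astrocytes against Astrocytes, 0.079, 0.097 and -0.261 in NSC against Astrocytes, -0.261, -0.147 and -0.236 in Glioblastoma against NSC, -0.182, -0.05 and -0.497 in Glioblastoma against Astrocytes, and -0.269, -0.187 and -0.359 in Glioblastoma against MIM-Astrocytes. MIM-Astrocytes against NSC gave 0.008 with median-of-ratios scaling and 0.123 at a common total. Without the highest member the beta ratio was 0.182 in NSC against Astrocytes, 0.014 in MIM-Astrocytes against NSC and -0.056 in Glioblastoma against MIM-Astrocytes.

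For gamma sums, the 3 scalings gave 0.456, 0.427 and 0.228 in MIM-Astrocytes against Astrocytes, -1.404, -1.371 and -1.374 in Glioblastoma against NSC, -1.407, -1.376 and -1.724 in Glioblastoma against Astrocytes, and -1.863, -1.804 and -1.952 in Glioblastoma against MIM-Astrocytes. A common total gave -0.35 in NSC against Astrocytes, and MIM-Astrocytes against NSC gave 0.433 with quantile scaling and 0.578 at a common total. Without Pcdhgc3 the ratios were 0.3 in MIM-Astrocytes against Astrocytes, 0.453 in NSC against Astrocytes, -1.565 in Glioblastoma against NSC, -0.154 in MIM-Astrocytes against NSC and -1.411 in Glioblastoma against MIM-Astrocytes.

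Leaving out each library in turn kept counts at 22 to 26 higher and 3 to 4 lower in MIM-Astrocytes against Astrocytes, 8 to 10 higher and 29 to 31 lower in Glioblastoma against NSC, 6 to 8 higher and 30 to 33 lower in Glioblastoma against Astrocytes, and 5 to 7 higher in Glioblastoma against MIM-Astrocytes. When any 1 Glioblastoma library is left out, Pcdhb3 and Pcdhb5 are no longer tested, and neither is Pcdha12 without NSC replicate 3 or Astrocytes replicate 1 or 3. Among named members still tested, 13 calls of 9 members ended at least once and 0 signs turned. Whether replicate numbers pair the libraries is not stated. Deviations of same-numbered libraries correlated between -0.058 and 0.097, while libraries with unlike numbers reached -0.121 to 0.0736. In NSC against Astrocytes the same-numbered values were 0.0436, 0.0838 and 0.0970, and the unlike ones -0.0705 to -0.00324. In Glioblastoma against NSC the same-numbered values were -0.0262, -0.00243 and -0.0525. These values cannot decide on pairing, since deviations from a mean of 3 libraries depend on each other. With the replicate number as a block in fits of 6 libraries, 20 members were higher and 3 lower in MIM-Astrocytes against Astrocytes, and 8 higher and 31 lower in Glioblastoma against NSC. Without read counts, no limit can be set on genes listed at or near 0.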
